A study of Mus musculus with 17 samples.

Results

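The mitochondrial respiratory chain genes were followed across 6 populations of mouse hematopoietic stem and progenitor cells. The members were the 82 gene names on the array that begin with the names of the nuclear-encoded subunits, out of 28090 gene names measured, and each gene name was read from its brightest probe over all arrays. By name, 35 belonged to complex I (Nduf), 4 to complex II (Sdh), 7 to complex III (Uqcr), 19 to complex IV (Cox) and 17 to complex V (Atp5). The names are those of the array's design. Uqcr is now called Uqcr11 and Atp5f1 is now called Atp5pb, and 3 members are not subunits: Cox4nb is Emc8, a part of the endoplasmic reticulum membrane complex, Atp5s is Dmac2l, and Atp5sl is Dmac2, an assembly factor of complex I. Cox7a2l is known as a factor that joins complexes III and IV into supercomplexes, and Ndufa4 is now counted as a subunit of complex IV. The 3 gene names that are not subunits were kept among the 82, since the choice was made by name, and were left out of the medians of each complex on each array.

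The populations were long-term HSCs (LT-HSC, 2 arrays), short-term HSCs (ST-HSC, 3 arrays), multipotent progenitors (MPP, 3 arrays), common myeloid progenitors (CMP, 3 arrays), granulocyte-monocyte progenitors (GMP, 3 arrays) and megakaryocyte-erythroid progenitors (MEP, 3 arrays). All came from the bone marrow of untreated female C57Bl/6 mice aged 6 to 8 weeks, with 10 to 20 mice pooled for a replicate, and no population carried a mutation or transgene. Cells were depleted of lineage-positive cells with antibodies to B220, CD3, GR-1 and Ter119 and were enriched for c-kit. LT-HSC, ST-HSC and MPP (the HSC subsets) were then sorted apart from CMP, GMP and MEP (the myeloid populations) in a separate sort. RNA was hybridized to single-color Agilent whole genome arrays. One LT-HSC array is a pool of replicates 2 and 3, and in each population 1 array carries no replicate number. The p-values measure only the spread between these arrays, and whether the replicate numbers mark separate sorts was not given in the sources used here.

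The scan times in the file headers fell into 3 groups, taken here as scanning runs (scans of 1 calendar month), which were not spread evenly over the populations. Whether the runs were also separate extractions or sorts is not given in the sources used here. Run 1 held 2 arrays each of CMP, GMP and MEP, run 2 held the unnumbered array of every population except LT-HSC, and run 3 held both LT-HSC arrays and 2 arrays each of ST-HSC and MPP. Comparisons among CMP, GMP and MEP were therefore balanced over runs, while the comparison of the HSC subsets with the myeloid populations had both sides only in run 2. Between 41.4% and 70.15% of the spots on an array were well above background, and the lowest share was that of the unnumbered LT-HSC array, which was also the dimmest. Of the markers, the HSC list was highest in LT-HSC, the GMP list in GMP and the MEP list in MEP, and the mature erythroid, mature neutrophil, B cell and T cell lists were also detected: their values stand beside the results they move with. All levels below are log2 quantile-normalized signals of a single probe, so a gene is compared between populations and never with another gene.

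The respiratory chain passes electrons from NADH (complex I) and succinate (complex II) through coenzyme Q to complex III, then through cytochrome c to complex IV, which reduces oxygen, and the proton gradient that this builds drives ATP synthesis by complex V. Most subunits are encoded in the nucleus and are present in nearly every cell, and complexes I, III, IV and V also hold subunits encoded by mitochondrial DNA. Long-term HSCs are known for a quiescent, glycolytic state, and erythroid progenitors for a large demand on mitochondria, where heme synthesis begins and ends.

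Subunit genes are known targets of the nuclear respiratory factor NRF-1, of the ETS factor GABP (NRF-2), of YY1 and of the estrogen-related receptors (ERR), so the letters of their binding motifs were searched in promoter windows from 250 bases before to 50 bases after the annotated start. RefSeq (GRCm38.p6) held windows for 67 of the 82 members, 73 windows in all. Letters were searched on both strands: CGCATGCG for the NRF-1 core, CCGGAAG for the ETS/GABP core, AAGATGGCG for YY1 and AAGGTCA for ERR. The NRF-1 core was in the windows of 9 of 67 members (13.4%), against 2.07% of all 27025 genes with a window and 4.86% of the 6401 whose array signal was well above background on all 17 arrays. YY1 letters were in 8 members (11.9%), against 1.64% and 4.05% of the same sets. The ERR letters were likewise in 8 members (11.9%), against 5.38% and 3.8%. The ETS/GABP core was in 16 members (23.9%), near the 21.7% of genes well above background on all arrays and above the 9.93% of all genes. In all, 31 of 67 members held at least 1 of the 4 motifs (46.3%, against 30.9% of the detected genes), and no hits of different motifs shared bases in a member's window. These shares are a description of the letters and not of binding.

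**Figure D1:**
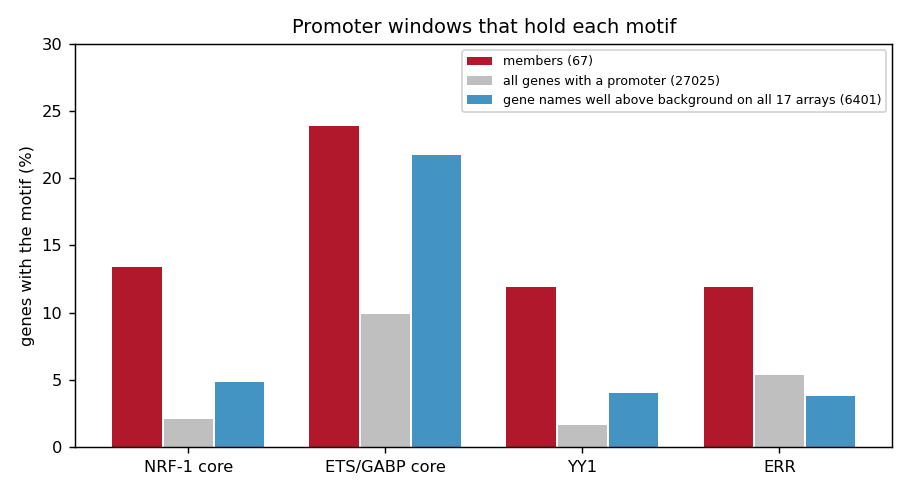
Share of genes (percent, vertical axis) whose promoter window held each motif, for the 67 members, all 27025 genes with a window and the 6401 genes well above background on all arrays. The members' bars stand highest for all 4 motifs, at 13.4%, 23.9%, 11.9% and 11.9%, and the ETS/GABP core differed least from the detected genes, at 23.9% against 21.7%.

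The following windows belong to members whose levels are given below, with capitals marking the motif letters on either strand. They show 6 members that were called in a comparison and hold a motif, and Cox6b2, which was also called and holds none. The windows are chr13:73328433-73328732 on the minus strand for Ndufs6 (YY1), chr4:140961021-140961320 on the plus strand for Sdhb (ETS/GABP), chr9:50603800-50604099 on the minus strand for Sdhd (ETS/GABP, then ERR), chr10:80406772-80407071 on the minus strand for Uqcr (ETS/GABP, then NRF-1), chr9:108936398-108936697 on the plus strand for Uqcrc1 (NRF-1), chr7:30626065-30626364 on the minus strand for Cox6b1 (ETS/GABP) and chr7:4753045-4753344 on the minus strand for Cox6b2.
Ndufs6: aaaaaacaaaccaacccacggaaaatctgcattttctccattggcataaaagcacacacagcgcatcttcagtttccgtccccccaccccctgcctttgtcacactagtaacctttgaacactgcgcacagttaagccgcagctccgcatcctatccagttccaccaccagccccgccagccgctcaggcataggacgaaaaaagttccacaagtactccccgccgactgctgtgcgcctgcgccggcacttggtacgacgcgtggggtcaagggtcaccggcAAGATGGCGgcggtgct
Sdhb: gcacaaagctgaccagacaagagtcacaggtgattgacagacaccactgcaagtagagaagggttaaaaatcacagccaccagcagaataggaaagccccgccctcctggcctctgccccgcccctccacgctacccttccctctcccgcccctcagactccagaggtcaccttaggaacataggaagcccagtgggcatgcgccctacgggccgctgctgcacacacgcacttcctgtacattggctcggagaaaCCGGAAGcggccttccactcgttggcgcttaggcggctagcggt
Sdhd: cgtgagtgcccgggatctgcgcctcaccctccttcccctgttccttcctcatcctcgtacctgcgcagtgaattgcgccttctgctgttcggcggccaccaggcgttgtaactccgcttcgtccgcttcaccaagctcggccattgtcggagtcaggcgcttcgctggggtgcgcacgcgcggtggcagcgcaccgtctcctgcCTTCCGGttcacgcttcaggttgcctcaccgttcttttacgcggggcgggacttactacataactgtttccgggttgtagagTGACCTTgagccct
Uqcr: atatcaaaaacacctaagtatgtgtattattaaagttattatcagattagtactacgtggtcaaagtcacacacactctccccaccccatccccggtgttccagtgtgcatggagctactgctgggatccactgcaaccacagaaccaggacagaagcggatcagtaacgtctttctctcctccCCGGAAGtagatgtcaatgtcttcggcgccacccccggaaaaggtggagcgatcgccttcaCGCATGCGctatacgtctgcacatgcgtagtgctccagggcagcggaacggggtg
Uqcrc1: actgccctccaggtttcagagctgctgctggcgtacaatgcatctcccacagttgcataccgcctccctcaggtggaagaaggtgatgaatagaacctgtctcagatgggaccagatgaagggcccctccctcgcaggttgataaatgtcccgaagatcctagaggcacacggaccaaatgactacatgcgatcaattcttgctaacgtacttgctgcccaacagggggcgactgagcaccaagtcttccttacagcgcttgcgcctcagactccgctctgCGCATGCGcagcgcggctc
Cox6b1: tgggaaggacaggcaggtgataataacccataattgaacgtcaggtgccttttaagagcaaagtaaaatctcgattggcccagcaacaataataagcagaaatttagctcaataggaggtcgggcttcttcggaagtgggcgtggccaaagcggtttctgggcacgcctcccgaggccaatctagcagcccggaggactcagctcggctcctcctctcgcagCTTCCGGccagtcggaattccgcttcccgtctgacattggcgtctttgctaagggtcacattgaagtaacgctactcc
Cox6b2: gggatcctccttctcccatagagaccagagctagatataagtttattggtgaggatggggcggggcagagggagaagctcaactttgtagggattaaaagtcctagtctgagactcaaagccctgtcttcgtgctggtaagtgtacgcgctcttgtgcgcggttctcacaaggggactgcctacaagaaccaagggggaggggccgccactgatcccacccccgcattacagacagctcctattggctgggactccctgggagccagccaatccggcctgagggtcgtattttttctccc

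Most members were detected everywhere and varied little. Of the 82, 78 were well above background on all 17 arrays, and none was saturated on any array. The population means of a member spanned a median of 0.61 log2 units among those 78, against 1.14 among the 10994 gene names detected on all arrays, and 62 of the 82 members spanned less than 1 unit. MEP held the highest mean of the 6 populations for 50 of the 82 members (61.0%, against 27.0% of all gene names). LT-HSC held the lowest mean for 27 members (32.9%, against 21.5%) and MPP for 22 (26.8%, against 17.6%). LT-HSC was highest for 1 member, Cox7b2, which was not well above background on any array, and MEP was lowest for 5. The 2 LT-HSC arrays differed. With each gene centred on its mean over the populations, the median of the 79 subunits was -0.20 on the unnumbered array, the dimmest, and -0.0 on the pooled one. In the limma F-test over the 6 populations, 30 of 82 members passed at an adjusted p of 0.05 (36.6%), against 40.2% of all gene names and 61.9% of those detected on all arrays. By complex, 13 of 35 members passed in complex I, 3 of 4 in complex II, 3 of 7 in complex III, 5 of 19 in complex IV and 6 of 17 in complex V. At an unadjusted F-test p of 1e-06, 1 member, Cox6b2, passed, and its adjusted p was 3.18e-06. The study used an F-test threshold of that size to choose the input of its miR-mRNA targeting analysis. It does not state whether that p was adjusted.

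**Figure D2:**
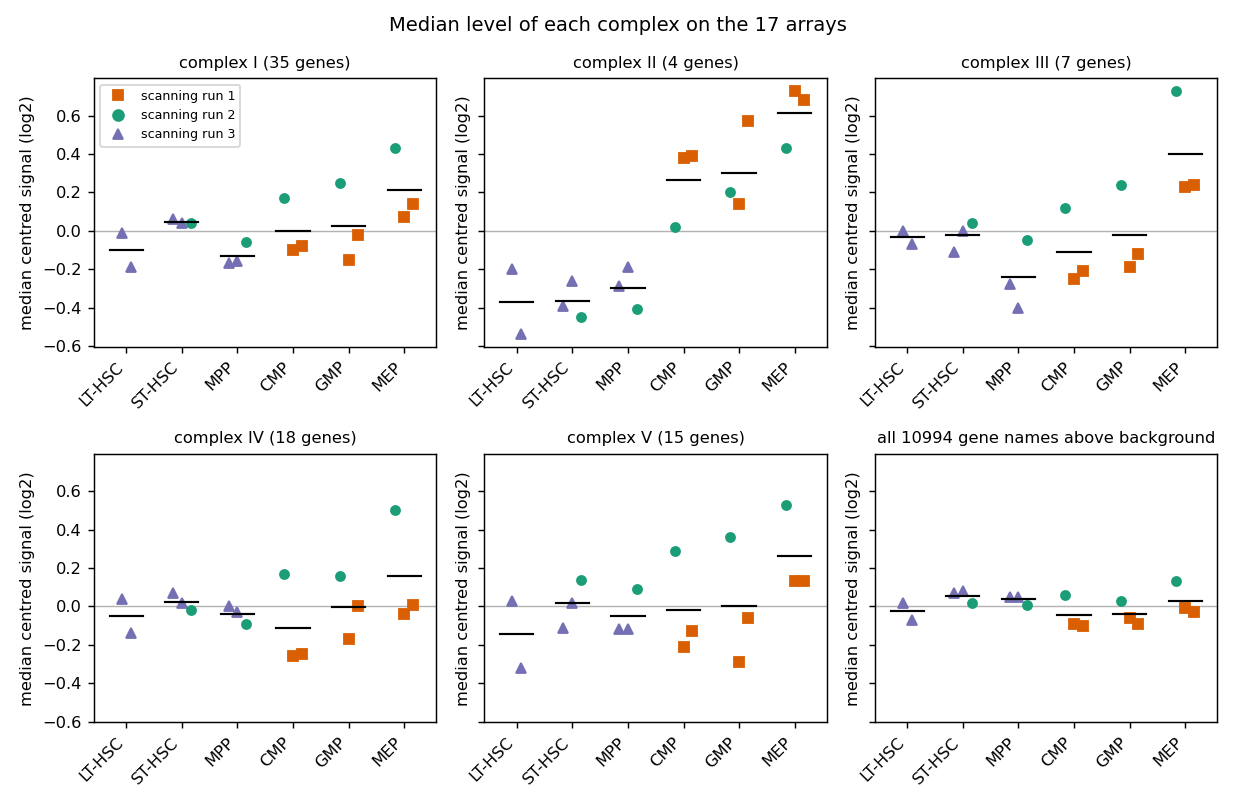
Median level of each complex on each of the 17 arrays (vertical axis, log2, each gene centred on its mean over the 6 populations), with a horizontal line at each population's mean and the marker showing the scanning run. Last panel: the same median over the 10994 gene names well above background on all arrays. The median of the 4 genes of complex II lay below 0 on all 8 arrays of the HSC subsets and above 0 on all 9 myeloid arrays, while the medians of the other complexes overlapped between those sides and were highest on the MEP array of run 2.

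After centring each gene on its mean over the populations, the median over the subunits of complex I was 0.21 ± 0.19 (SD, n = 3 arrays) in MEP, 0.03 ± 0.20 (n = 3) in GMP and -0.13 ± 0.06 (n = 3) in MPP. That of complex II ran from -0.37 ± 0.24 (n = 2) in LT-HSC to 0.61 ± 0.16 (n = 3) in MEP. Complex III had its lowest value in MPP, -0.24 ± 0.18, and its highest in MEP, 0.40 ± 0.29 (n = 3 each). Complex II was thus the one set whose arrays did not overlap between the HSC subsets (-0.54 to -0.19) and the myeloid populations (0.02 to 0.73). Complex IV ranged from -0.11 ± 0.25 in CMP to 0.16 ± 0.30 in MEP, and complex V from -0.15 ± 0.25 (n = 2) in LT-HSC to 0.26 ± 0.23 (n = 3) in MEP, and the arrays of the lowest and the highest population overlapped in complex IV but not in complex V. The medians of the gene names detected on all arrays stayed between -0.10 and 0.13.

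The HSC subsets were compared with the myeloid populations to ask whether the chain differs between stem-like and committed cells. The sorted populations were measured in bulk, so fewer cells of a type and less RNA per cell cannot be told apart. In the HSC subsets 29 of 82 members were lower (35.4%, against 19.1% of all gene names and 27.8% of those detected on all arrays) and 6 were higher (7.32%, against 21.7% and 31.3%). The median difference of the members was -0.10 log2 units, with 0.04 for all gene names. Members called lower included Ndufa10, Cox6b1 and Sdhc, and the largest rises those of Cox6a2, Atp5s, Cox7a1 and Ndufa4. With the scanning run as a block, 28 members were lower (34.1%, against 7.71% of all gene names) and none was higher (against 8.38%), and the median was -0.37 with -0.05 for all gene names. Of the 29 lower calls 20 were shared by both fits, and of the 6 higher calls 0. Within run 2 alone, which had 1 array each of 5 populations, 73 of 82 members were lower with a median of -0.36 (-0.06 for all gene names), and limma called 0 in either direction. The share of all gene names called within run 2 was not worked out, so the 0 is not read as a result about the members. Without the unnumbered LT-HSC array 3 members were higher. Scaling to the 75th percentile in place of quantiles gave a median of -0.21 for the members and 0.37 for all gene names (0.04 for those well above background on all arrays), with 4 members higher and 29 lower. The shares of all gene names called under that scaling were not worked out.

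**Figure D3:**
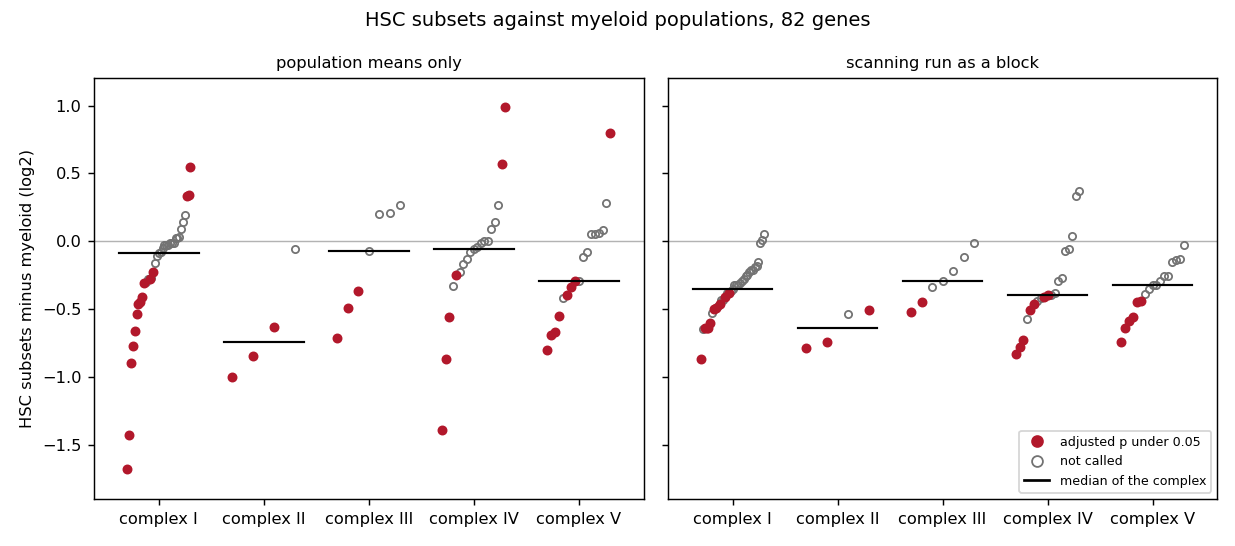
Difference of each of the 82 members between the HSC subsets and the myeloid populations (vertical axis, log2, negative is lower in the HSC subsets) by complex, from the fit on population means (left) and with the scanning run as a block (right). Filled points passed an adjusted p of 0.05 and bars are medians. The 6 members called higher on the left are not called on the right, where all 28 called members are below 0.

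Markers of other cells also differed between populations of this comparison, not all of them between its sides. The mean of the 6 mature neutrophil markers ran from 10.44 to 14.11 on the arrays of the HSC subsets and from 9.76 to 12.36 on the myeloid arrays, with all 6 detected in each population. The mean of the 5 B cell markers was 9.64 and 10.14 on the LT-HSC arrays and at most 8.14 elsewhere, and Cd79a and Ms4a1 were not well above background on any CMP or MEP array. The 4 T cell markers averaged 5.95 to 7.51 in the HSC subsets and 3.73 to 5.83 in the myeloid populations, where Cd3d and Cd3g were not well above background on any CMP or GMP array. The part of these cells in the result was not tested.

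MEP was compared with CMP, the progenitor known to give rise to both MEP and GMP, and with GMP. Against CMP, 12 of 82 members were higher in MEP (14.6%, against 7.73% of all gene names and 14.7% of those detected on all arrays) and 1 was lower (1.22%, against 10.5% and 16.9%). Against GMP, 10 were higher (12.2%, against 8.51% and 15.5%) and 0 were lower in limma (against 10.5% and 17.3%, with 1 member lower at an unadjusted p under 0.05). The median differences of the members were 0.34 and 0.21, with 0.10 and 0.07 for all gene names. The share higher in MEP was thus near that of genes detected on all arrays, and the share lower was not. With the scanning run as a block, 37 members were higher than in CMP (45.1%, against 13.8% of all gene names) and 3 were lower (3.66%, against 13.6%), and 30 were higher than in GMP (36.6%, against 13.8%) and 1 was lower (1.22%, against 13.3%). The count higher than in CMP was 7 without the unnumbered MEP array, 5 without CMP replicate 1 and 6 without CMP replicate 2, and the count higher than in GMP was 5 without the unnumbered MEP array and 4 without GMP replicate 1. Without the unnumbered CMP array 3 members were lower in MEP than in CMP. Scaling to the 75th percentile moved the median of all gene names to 0.51 against CMP and 0.44 against GMP, those of gene names well above background on all arrays to 0.29 and 0.25, and those of the members to 0.72 and 0.52.

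**Figure D4:**
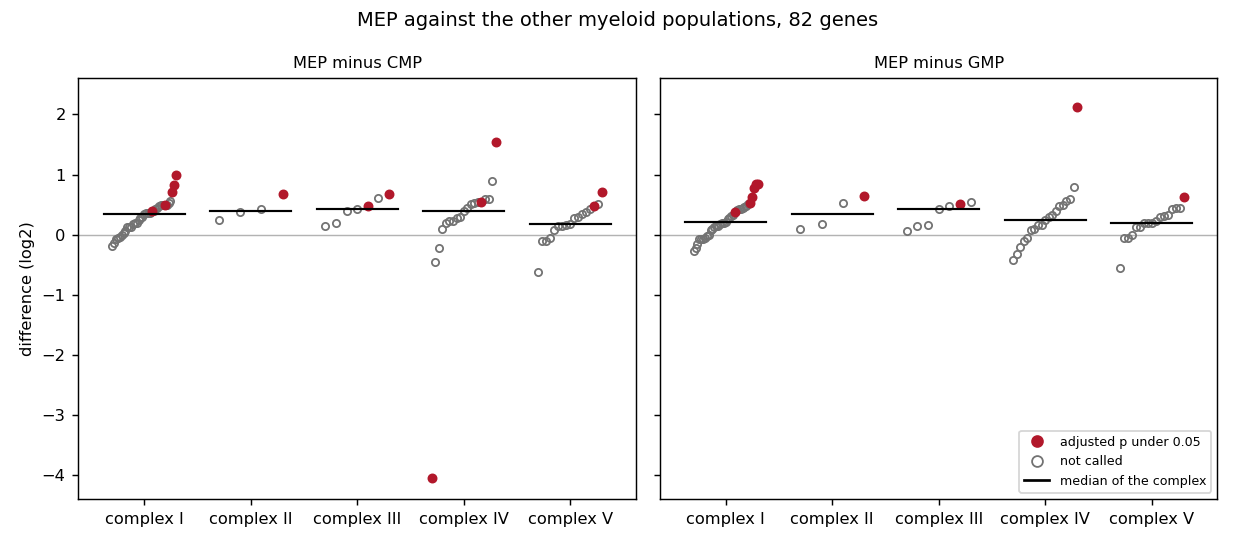
Difference of each of the 82 members between MEP and CMP (left) and between MEP and GMP (right), in log2 units on the vertical axis and by complex. Filled points passed an adjusted p of 0.05 and bars are medians. All 5 medians are above 0 in both comparisons, and Cox6a2 (-4.06) and Cox6b2 (1.55 and 2.13) stand outside the other members.

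The mean of the 5 mature erythroid markers was 10.21 to 11.54 on the MEP arrays, 6.61 to 7.77 on the CMP arrays and 5.28 to 6.62 on the GMP arrays, and it was 7.20 to 9.5 in the HSC subsets. The MEP list (Gata1, Klf1, Epor, Zfpm1 and Gfi1b) averaged 13.63 to 13.67 in MEP and at most 12.07 elsewhere. The part of more mature erythroid cells in the MEP values was not tested.

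The other 3 comparisons called few members, and on population means these were Cox6a2 and Cox6b2. Between LT-HSC and the mean of ST-HSC and MPP, 1 member was higher (Cox6b2, 1.22%, against 5.53% of all gene names) and 0 were lower in limma (against 2.45%, with 4 members at an unadjusted p under 0.05). Between MPP and ST-HSC, Cox6a2 was higher (1 of 82, against 1.48% of all gene names) and 0 were lower (against 1.2%, with 5 at an unadjusted p under 0.05). Between GMP and CMP, Cox6a2 was lower (1 of 82, against 3.65%) and 0 were higher (against 2.23%, with 1 at an unadjusted p under 0.05). MPP had values below ST-HSC for 65 of 82 members, with a median of -0.15 (0.01 for all gene names), and none of these passed the test on population means. With the run as a block, Cox6b2 (-0.67, adjusted p = 0.00432) and Cox7a2 (-0.44, adjusted p = 0.0300) were lower in MPP than in ST-HSC, and Ndufa4 was lower in LT-HSC (-0.61, adjusted p = 0.00873). Between GMP and CMP the block added Cox6b2 (-0.57, adjusted p = 0.00539) among the lower members, and Cox5a (0.43), Cox7a2 (0.45) and Ndufb3 (0.41) were higher (adjusted p = 0.0110, 0.0144 and 0.0463), Cox5a and Ndufb3 being named after their values were seen. Single arrays moved these small counts: 1 member was lower in LT-HSC without its pooled array, 1 was lower in MPP and 2 were lower in GMP without the unnumbered GMP array, and 0 were higher in LT-HSC when any of 14 arrays was left out.

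Complex I oxidizes NADH through a matrix arm that carries the flavin and the iron-sulfur clusters. Ndufs1, the largest iron-sulfur subunit of that arm (probe at chr1:63190360-63190419, mm9), read 13.50, 13.54 and 13.76 on the MEP arrays, 12.74, 12.77 and 12.82 on the CMP arrays and 12.75, 12.75 and 12.76 on the GMP arrays. It read 12.76 and 12.89 in LT-HSC, 12.51 to 12.75 in ST-HSC and 12.28 to 12.53 in MPP. The MEP arrays stood above all others, and the other 5 populations lay within 0.61 log2 units of each other. Ndufs1 was higher in MEP than in CMP by 0.82 ± 0.12 (SE, adjusted p = 0.000292 by limma) and than in GMP by 0.85 ± 0.12 (adjusted p = 0.000193), and the HSC subsets differed from the myeloid populations by -0.45 ± 0.07 (adjusted p = 0.000324).

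Ndufa10, an accessory subunit of the membrane arm (probe at chr1:94361039-94363996, mm9), had means of 10.31 ± 0.16 (n = 2) in LT-HSC, 10.53 ± 0.15 in ST-HSC and 10.36 ± 0.25 in MPP, and of 11.59 ± 0.37, 11.75 ± 0.22 and 12.16 ± 0.30 in CMP, GMP and MEP (n = 3 each). The sides did not overlap, also within run 2, where ST-HSC read 10.67, MPP 10.63 and the myeloid arrays 11.16 to 11.82. The difference was -1.43 ± 0.13 (adjusted p = 2.51e-06) and -0.87 with the run as a block (adjusted p = 0.00237), so its size moved with the run by over 1.5 times.

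Ndufs6, an accessory subunit that takes part in assembly, is measured by 3 probes and its promoter window is shown above. On the brightest (chr13:73457790-73457849, mm9) it read 13.26, 13.29 and 13.30 in MEP, 12.75, 12.79 and 12.80 in CMP and 12.70, 12.96 and 13.04 in GMP, so the MEP arrays stood above both. It rose by 0.50 ± 0.13 against CMP (adjusted p = 0.0118) and by 0.38 ± 0.13 against GMP (adjusted p = 0.0482), and the latter call was lost when any of 13 single arrays was left out. Ndufa5, an accessory matrix subunit, read 14.06, 14.19 and 14.81 in MEP, 13.11, 13.17 and 13.82 in CMP and 13.19, 13.52 and 13.83 in GMP, and in each of these populations the highest value was that of run 2. It was higher in MEP by 0.99 ± 0.25 (adjusted p = 0.0125) and 0.84 ± 0.25 (adjusted p = 0.0292), and Ndufb9, of the membrane arm, by 0.71 ± 0.20 (adjusted p = 0.0234) and 0.77 ± 0.20 (adjusted p = 0.0134). Without the unnumbered MEP array none of these 4 calls held, the calls against CMP were also lost without CMP replicate 1 or 2 and those against GMP without GMP replicate 1, and that of Ndufa5 against GMP without GMP replicate 2. Ndufa9, an accessory subunit at the junction of the arms, spanned 0.20 log2 units over the population means, the least of the 82 members, and was picked out after its values were seen.

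Complex II, succinate dehydrogenase, is shared with the citric acid cycle and is wholly nuclear-encoded. Sdha, its flavoprotein, had means of 9.74 ± 0.52 (n = 2) in LT-HSC, 9.74 ± 0.12 in ST-HSC and 9.73 ± 0.18 in MPP against 10.33 ± 0.15, 10.67 ± 0.21 and 10.76 ± 0.21 in CMP, GMP and MEP (n = 3 each). It differed by -0.85 ± 0.12 (adjusted p = 8.3e-05) and by -0.79 with the run as a block (adjusted p = 0.0185), and a second probe of Sdha gave -1.23 (adjusted p = 0.000741 over all probes). Sdhc, a membrane anchor that binds coenzyme Q and heme (probe at chr1:173059657-173059716, mm9), read 10.33 and 10.34 in LT-HSC, 10.53 to 10.66 in ST-HSC and 10.34 to 10.55 in MPP, against 10.83 to 11.52 in CMP, 11.12 to 11.75 in GMP and 11.37 to 11.77 in MEP. The HSC arrays of all runs lay below all myeloid arrays. The difference was -1.0 ± 0.12 (adjusted p = 2.6e-05), and -0.74 with the block (adjusted p = 0.00201).

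Sdhb, the iron-sulfur subunit, read 11.49 to 11.92 over the 8 HSC arrays, while GMP spread from 11.66 to 12.42 and MEP from 12.43 to 12.70. The HSC subsets differed by -0.63 ± 0.12 (adjusted p = 0.000888), and by -0.54 with the run as a block, which did not pass (adjusted p = 0.0813). It was higher in MEP than in GMP by 0.65 ± 0.20 (adjusted p = 0.0352), a call that was lost when any of 4 single arrays was left out. Sdhd, the other anchor, differed between the HSC subsets and the myeloid populations by -0.06 ± 0.12 (adjusted p = 0.718), and by -0.51 with the run as a block (adjusted p = 0.0293). It was higher in MEP than in CMP by 0.68 ± 0.20 (adjusted p = 0.0279), a call that was likewise lost when any of 4 single arrays was left out.

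Complex III passes electrons from coenzyme Q to cytochrome c. Uqcrc2, a core protein of the matrix side (probe at chr7:127802599-127802658, mm9), read 14.04, 14.20 and 14.26 in MEP against 13.66 to 13.74 in CMP and 13.62 to 13.69 in GMP. The 3 MEP arrays were above all others on the array set, LT-HSC (13.80 and 13.99) coming nearest. It was higher in MEP by 0.47 ± 0.12 against CMP (adjusted p = 0.0119) and 0.51 ± 0.12 against GMP (adjusted p = 0.00656), and the call against CMP was lost without MEP replicate 2. Uqcrc1, its partner core protein, differed in the other comparison, by -0.71 ± 0.13 between the HSC subsets and the myeloid populations (adjusted p = 0.000506). That value was -0.34 with the run as a block (adjusted p = 0.179).

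Uqcr, the smallest subunit, whose window holds both the ETS/GABP and the NRF-1 letters, read 14.62, 14.69 and 14.96 in MEP and 13.94, 13.99 and 14.30 in CMP, with no overlap. It was higher in MEP by 0.68 ± 0.17 (adjusted p = 0.0116, a call lost without CMP replicate 1) and the HSC subsets differed from the myeloid populations by -0.37 ± 0.10 (adjusted p = 0.0108).

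Complex IV, cytochrome c oxidase, holds several subunits that exist as ubiquitous and tissue-restricted isoforms. Cox6a2, the heart and skeletal muscle isoform (probe at chr7:135349160-135349219, mm9), had the widest range of all members, 4.62 log2 units. It read 10.36, 11.01 and 11.36 in MPP and 10.06, 10.61 and 10.62 in CMP. It read 8.03 and 8.48 in LT-HSC, 6.66, 6.84 and 7.20 in ST-HSC, 6.13, 6.27 and 6.46 in GMP and 5.43, 5.45 and 8.25 in MEP, and it was well above background on all 17 arrays. MPP and CMP overlapped with each other and lay above all arrays of the other 4 populations, and the MEP array at 8.25 was that of run 2.

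Cox6a2 was higher in MPP than in ST-HSC by 4.01 ± 0.58 (16.1-fold, adjusted p = 0.00163). It was lower in GMP than in CMP (-4.15 ± 0.58, 17.7-fold, adjusted p = 0.000722) and lower in MEP than in CMP (-4.06 ± 0.58, 16.6-fold, adjusted p = 0.000184). These calls kept their direction and threshold when any single array was left out, and without the unnumbered MEP array the difference between MEP and CMP was -4.99. Under 2 of 10 alternatives to the processing, the call between MPP and ST-HSC was lost with its direction kept. The 0.99 ± 0.35 between the HSC subsets and the myeloid populations (adjusted p = 0.0362) lost its call when any of 12 single arrays was left out, and was 0.37 with the run as a block (adjusted p = 0.759). The ubiquitous isoform Cox6a1 had means between 16.34 and 16.93 in the 6 populations and was not called in any comparison of population means, but with the run as a block it was higher in MEP than in CMP (0.45, adjusted p = 0.0177) and than in GMP (0.59, adjusted p = 0.00363).

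Cox6b2, known as the testis isoform of a subunit that faces the intermembrane space (probe at chr7:4703488-4703547, mm9), read 11.41, 11.55 and 11.86 in MEP. It read 10.14 and 10.31 in LT-HSC, 9.81 to 10.07 in ST-HSC, 9.17 to 9.34 in MPP, 9.86 to 10.27 in CMP and 9.30 to 9.80 in GMP. The MEP arrays stood more than 1 unit above all others, and MPP and GMP were lowest and overlapped. Cox6b2 was higher in MEP than in GMP by 2.13 ± 0.17 (4.36-fold, adjusted p = 1.26e-06) and than in CMP by 1.55 ± 0.17 (2.94-fold, adjusted p = 2.43e-05). Its difference between LT-HSC and the mean of ST-HSC and MPP was 0.61 ± 0.17 (adjusted p = 0.0486), a call lost when any of 14 single arrays was left out.

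Cox6b1, the ubiquitous partner isoform, had another pattern. It read 8.89 and 8.93 in LT-HSC, 9.05 and 9.24 on the run 3 arrays of ST-HSC and 8.92 and 8.96 on those of MPP. The run 2 arrays stood apart, with 10.08 in MPP and a higher value in ST-HSC, whose mean was 9.5 ± 0.62 (n = 3). It read 10.25 to 10.59 in CMP, 10.15 to 10.91 in GMP and 10.88 to 10.97 in MEP, so that 1 ST-HSC array stood above 1 GMP array. The difference between the sides was -1.39 ± 0.20 (adjusted p = 0.000112), and -0.73 with the run as a block (adjusted p = 0.0131), which is also a change of over 1.5 times.

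**Figure D5:**
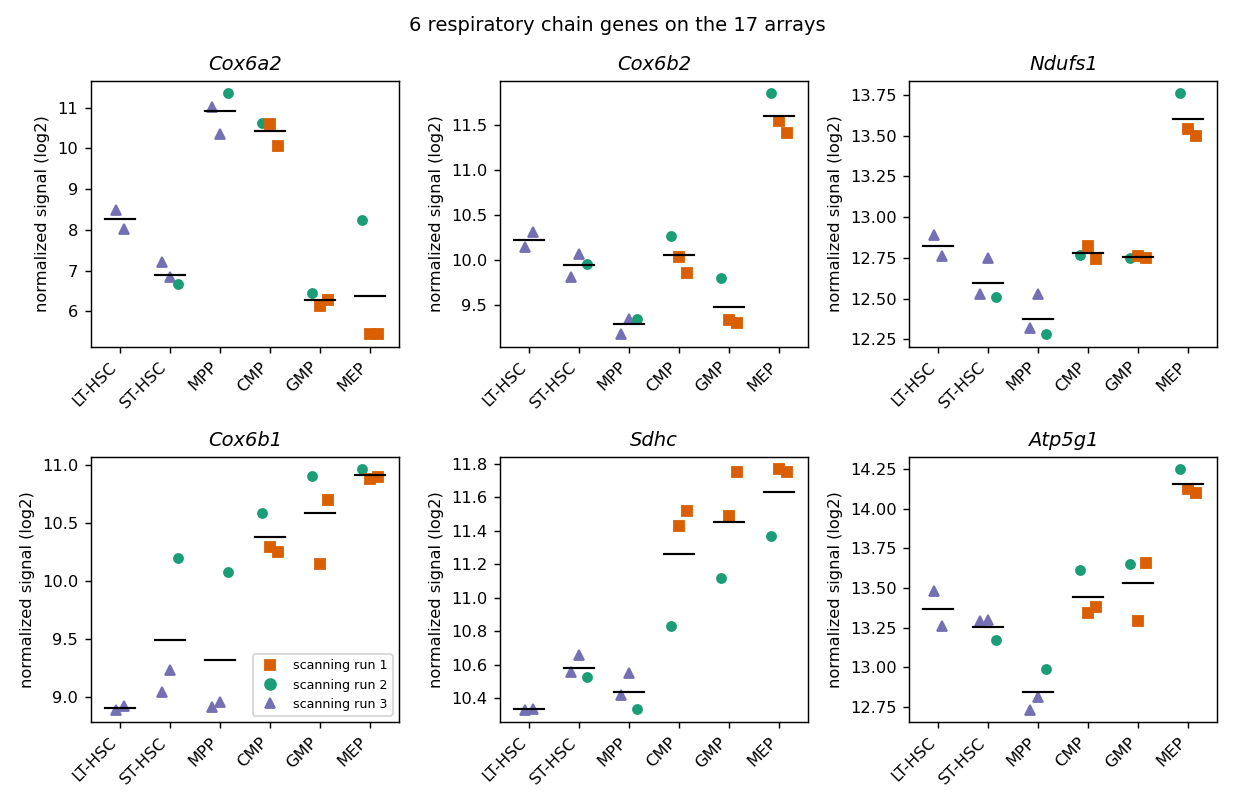
Normalized signal (vertical axis, log2) of 6 members on the 17 arrays, with a horizontal line at each population's mean and the marker showing the scanning run. Cox6a2 is high in MPP and CMP (10.06 to 11.36), Cox6b2, Ndufs1 and Atp5g1 stand highest in MEP, and Cox6b1 and Sdhc are lower in the HSC subsets, where the run 2 arrays of Cox6b1 lie nearer the myeloid arrays (10.08 in MPP).

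The remaining isoform pairs varied less or were not detected. Cox4i1, the ubiquitous form, had means of 15.26 to 15.51, and Cox4i2, the lung form, was well above background on 4 of 17 arrays, namely ST-HSC 2 and 3 and MPP 2 and 3, all of run 3. Cox7b2, Cox8b and Cox8c were not well above background on any array, while their ubiquitous partners Cox7b and Cox8a had means of 13.24 to 13.81 and 15.24 to 15.56. Cox7a1, the muscle form, had means of 7.73 to 7.83 in the HSC subsets and 7.05 to 7.36 in the myeloid populations (0.57 ± 0.17, adjusted p = 0.0201), and the difference was 0.04 with the run as a block (adjusted p = 0.957). Cox7a2 had means of 13.57 to 14.09 and Cox7a2l of 11.75 to 12.30, and neither was called on population means. With the run as a block Cox7a2 was higher (0.52, adjusted p = 0.00226) and Cox7a2l lower (-0.46, adjusted p = 0.0206) in MEP than in CMP, Cox7b was higher in MEP than in CMP (0.39, adjusted p = 0.0132), and Cox4i1 (-0.41, adjusted p = 0.0409) and Cox7b (-0.40, adjusted p = 0.0385) were lower in the HSC subsets. Ndufa4 had means of 14.12, 14.50 and 14.70 in LT-HSC, ST-HSC and MPP and of 13.85 to 13.93 in the myeloid populations (0.55 ± 0.12, adjusted p = 0.00238), and 0.01 with the run as a block (adjusted p = 0.982). Cox4nb, which is no subunit, differed by -0.87 ± 0.13 (adjusted p = 0.000175), and by -0.83 with the block (adjusted p = 0.00169).

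Complex V makes ATP, and its membrane ring is built from subunit c, for which Atp5g1, Atp5g2 and Atp5g3 encode the same mature protein. Atp5g1 (probe at chr11:95934924-95934983, mm9) read 14.10, 14.12 and 14.25 in MEP, 13.34, 13.38 and 13.61 in CMP and 13.29, 13.65 and 13.66 in GMP. It read 13.26 and 13.48 in LT-HSC, 13.17 to 13.30 in ST-HSC and 12.73 to 12.99 in MPP. The MEP arrays were above and the MPP arrays below all others. Atp5g1 was higher in MEP by 0.71 ± 0.14 against CMP (adjusted p = 0.00231) and 0.63 ± 0.14 against GMP (adjusted p = 0.00517), and the HSC subsets differed from the myeloid populations by -0.55 ± 0.08 (adjusted p = 0.000161). On their brightest probes Atp5g2 had means of 14.57 to 14.81 and Atp5g3 of 15.83 to 16.27, and neither was called on population means. Atp5g3 was higher in MEP than in CMP with the run as a block (0.43, adjusted p = 0.0183). A dimmer probe of Atp5g2 was lower in the HSC subsets than in the myeloid populations (-0.29, adjusted p = 0.0179 over all probes). Its brightest probe gave 0.06 there (adjusted p = 0.61).

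Atp5d, the delta subunit of the central stalk, read 12.25 to 12.37 on the 6 arrays of run 3, 12.76 in ST-HSC and 12.99 in MPP of run 2, and 12.92 to 13.30 on the myeloid arrays. Its difference of -0.67 ± 0.11 (adjusted p = 0.000228) was -0.26 with the run as a block (adjusted p = 0.11). The 2 gene names that are not subunits moved apart: Atp5sl (Dmac2) differed by -0.80 ± 0.13 between the HSC subsets and the myeloid populations (adjusted p = 0.000325) and by -0.14 with the run as a block (adjusted p = 0.529), and Atp5s by 0.80 ± 0.16 (adjusted p = 0.00127). The direction of Atp5s was not stable, since its dimmer probe gave -0.77 (adjusted p = 0.0214 over all probes) and the fit with the run as a block gave -0.03. Among the 27 members with several probes, it was the only called member that another probe called the opposite way. Members not called on the brightest probe could still be called on another. In the same comparison Atp5b differed by -0.42 on its brightest probe (adjusted p = 0.0651 over all probes). Its other 2 probes gave -2.13 (adjusted p = 2.41e-05) and -2.40 (adjusted p = 2.94e-05). Uqcrh differed by 0.27 on its brightest probe (adjusted p = 0.391) and by 0.50 on the other (adjusted p = 0.0177).

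Genes around the chain were read from 5 lists of 101 genes, of which 78 were on the array by the listed symbol and 22 by an older one. The shares called over all gene names, against which the counts of each list are to be read, were 19.1% lower and 21.7% higher in the HSC subsets, 7.73% higher and 10.5% lower in MEP than in CMP, and 8.51% higher and 10.5% lower in MEP than in GMP. Among gene names detected on all arrays they were 27.8% and 31.3%, 14.7% and 16.9%, and 15.5% and 17.3%. Over all gene names with the run as a block they were 7.71% and 8.38%, 13.8% and 13.6%, and 13.8% and 13.3%. The assembly factors had 17 of 42 lower and 3 higher in the HSC subsets than in the myeloid populations (19 and 0 with the block). In MEP 12 of 42 were higher and 0 lower than in CMP (23 and 1 with the block), and 12 were higher and 0 lower than in GMP (18 and 0). Taco1, a translational activator of Cox1 (on the array as Ccdc44), differed by -1.63 ± 0.20 between the HSC subsets and the myeloid populations (adjusted p = 2.88e-05) and by 1.3 between MEP and CMP (adjusted p = 0.0142). It was not well above background on the unnumbered LT-HSC array (4.64, against 5.62 to 6.47 on the other HSC arrays). Cox10, of heme a synthesis, differed by -1.21 (adjusted p = 0.00489) and by -0.29 with the run as a block (adjusted p = 0.787). The largest rises in the HSC subsets were those of Cox14 (0.86, adjusted p = 0.00301) and Cox20 (0.47, adjusted p = 0.0173), assembly factors of complex IV, and with the block they were 0.38 (adjusted p = 0.142) and -0.09 (adjusted p = 0.789). Cox11, a copper chaperone, was higher in MEP than in CMP by 1.28 ± 0.22 (adjusted p = 0.00105) and than in GMP by 1.34 ± 0.22 (adjusted p = 0.000615), and Ndufaf1, an assembly factor of complex I, than in GMP by 1.08 ± 0.15 (adjusted p = 0.000161). In the other comparisons 1 gene of this list was called on population means, Acad9 (0.49 between GMP and CMP, adjusted p = 0.0314). With the block 1 of 42 was higher and 1 lower in LT-HSC than in the mean of ST-HSC and MPP.

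Of 17 electron carriers and coenzyme Q enzymes, 6 were lower and 2 higher in the HSC subsets (8 and 1 with the run as a block). Coq9 (-1.65 ± 0.18, adjusted p = 8.7e-06) and Coq5 (-1.27 ± 0.11, adjusted p = 1.97e-06), both of coenzyme Q synthesis, led the falls, and with the block they differed by -0.99 (adjusted p = 0.0314) and -0.73 (adjusted p = 0.00212), a change in size of over 1.5 times. Coq10b (1.01, adjusted p = 0.00103) and Etfdh (0.40, adjusted p = 0.0245) were higher. With the block neither passed, Coq10b at 0.97 (adjusted p = 0.108) and Etfdh at -0.25 (adjusted p = 0.222). In MEP, 6 of 17 were higher and 1 lower than in CMP (7 and 2 with the block), and 5 were higher and 1 lower than in GMP (7 and 1). Coq7, a hydroxylase of coenzyme Q synthesis, was higher by 1.09 ± 0.17 against CMP (adjusted p = 0.000336) and 0.91 ± 0.17 against GMP (adjusted p = 0.00124), and Pdss1 by 0.83 against CMP (adjusted p = 0.0238). Coq8a (on the array as Cabc1) was lower in MEP than in CMP (-1.33 ± 0.25, adjusted p = 0.00154) and lower in GMP than in CMP (-1.02 ± 0.25, adjusted p = 0.0267), and Etfb, which passes on electrons from fatty acid oxidation, was lower in MEP than in GMP (-1.40 ± 0.30, adjusted p = 0.00422). Etfdh was higher in MEP than in GMP by 0.66 (adjusted p = 0.0475).

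Of 13 citric acid cycle enzymes, 7 were lower and 0 higher in the HSC subsets (8 and 0 with the run as a block), led by Ogdh (-2.04 ± 0.24, adjusted p = 1.77e-05, and -0.75 with the run as a block, adjusted p = 0.0127) and Idh3b (-1.21 ± 0.21, adjusted p = 0.000448, and -0.57 with the block, adjusted p = 0.0817). In MEP, 4 of 13 were higher and 0 lower than in CMP (7 and 1 with the block), and 3 were higher and 0 lower than in GMP (7 and 0). Idh3a, the catalytic subunit of isocitrate dehydrogenase, was higher by 1.35 ± 0.24 against CMP (adjusted p = 0.00111) and 1.16 ± 0.24 against GMP (adjusted p = 0.00306), Dld by 0.79 against CMP (adjusted p = 0.00817) and Dlst by 0.65 against GMP (adjusted p = 0.00852).

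Of 18 transcription regulators, 9 were lower and 4 higher in the HSC subsets, and with the run as a block 4 were lower and 0 higher. The count higher was near the share over all gene names. Ppargc1a, the coactivator PGC-1 alpha, was well above background on 7 of 8 HSC arrays and 2 of 9 myeloid arrays. It read 5.46 and 5.64 in LT-HSC, 5.01 to 6.51 in ST-HSC, 5.86 to 6.86 in MPP and 1.76 to 4.14 on the myeloid arrays, with no overlap. It passed the test on population means (adjusted p = 5.44e-05) and not with the run as a block (adjusted p = 0.0857), and no size is given because most of the myeloid values were not well above background. Gabpa, of GABP, was higher in the HSC subsets by 0.61 (adjusted p = 0.0183), and the difference was -0.08 with the block (adjusted p = 0.793). Polg, the mitochondrial DNA polymerase (-1.38 ± 0.17, adjusted p = 2.38e-05), and Tefm, the transcription elongation factor (on the array as 1110002N22Rik, -1.77 ± 0.33, adjusted p = 0.000886), were lower. With the block neither passed, Polg at -0.64 (adjusted p = 0.0552) and Tefm at -1.6 (adjusted p = 0.167), and Tefm was not well above background on the unnumbered LT-HSC array (2.48, against 5.32 to 6.11 on the other HSC arrays). In MEP, 4 of 18 were higher and 1 lower than in CMP (7 and 1 with the block) and 3 were higher and 0 lower than in GMP (5 and 1). Pprc1, a relative of PGC-1 alpha, rose by 0.87 ± 0.15 (adjusted p = 0.000771) and 0.92 ± 0.15 (adjusted p = 0.000404), Tfb1m by 0.83 against CMP (adjusted p = 0.0231) and Twnk, the helicase, by 0.93 against GMP (adjusted p = 0.0160), while Gabpb1 was lower than in CMP (-0.58, adjusted p = 0.0294).

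Of 10 carriers, porins and uncoupling proteins, 3 were lower and 2 higher in the HSC subsets (2 and 0 with the run as a block), the count higher being near the share over all gene names. Slc25a3, the phosphate carrier (-1.39 ± 0.20, adjusted p = 8.78e-05), and Ucp2 (-1.02 ± 0.16, adjusted p = 0.000237) were lower, Vdac2 was higher (0.52 ± 0.11, adjusted p = 0.00148), and none of these passed with the block, at -0.34 (adjusted p = 0.181), -0.32 (adjusted p = 0.259) and 0.13 (adjusted p = 0.642). Ucp1, the other gene called higher, was not well above background on any array, so its call there and that in LT-HSC carry no level. Slc25a4 was lower in MEP than in CMP (-0.45 ± 0.11, adjusted p = 0.00984), and Atpif1, the inhibitor of complex V, was higher in MEP than in GMP by 1.08 ± 0.27 (adjusted p = 0.0115), as was Vdac2 (0.54, adjusted p = 0.0473).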

How the data were processed

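RNA of 17 samples of 6 sorted bone marrow populations was hybridized to single-color Agilent 4x44k mouse arrays, and the deposited scanner files hold each spot's intensity as processed by the authors' Feature Extraction software, with probes placed on mm9. The deposited series table of the authors holds log2 values whose order on each array equals that of the median signal. Here the processed intensity was set to log2 and quantile-normalized over all spots. The study's methods name the quantile method and limma, but not the signal column or the spots used. Outlier spots and 1639 control spots were then left out, repeated spots were averaged to 41174 probes, and each gene name took its brightest probe. Population means were fitted on all arrays with limma 3.58.1 (lmFit, eBayes) in R 4.3.3, with Benjamini-Hochberg adjustment over 28090 gene names and a threshold of 0.05, and the procedure was tested on simulated data. The number of arrays limits the precision. The only missing member value, Ndufb10 on 1 GMP array, was left out. Promoter windows came from RefSeq.

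The members and lists were chosen with earlier results of these data known. Named were, per complex, the 3 members with the smallest F-test p, per comparison the 4 largest called differences each way, isoform families, Sdh genes, undetected members and gene names that are not subunits, and the 2 largest called differences each way of each pathway list. Alternatives were normexp (offset 50), the 75th percentile, a filter on dim probes, the series table, the scanning run, slide and replicate number as blocks, all probes averaged, and arrays left out. Subunit genes often have near-identical copies elsewhere in the genome, and a probe may read them too, which was not tested. Sco2 was not measured under a name in the tables, and 0 columns of unmapped samples were present. Some genes that the rule names are not reported here.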

Additional observations from a re-analysis of the deposited data

How the results depend on the processing

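Counts of members called were recomputed under each alternative, and those that moved by more than 1.5 times follow. Shares over all gene names were worked out only for the fits on population means and with the run as a block. Counts under the other alternatives are therefore not read as results about the members. Higher calls in the HSC subsets (6) were 0 with the scanning run as a block, 1 with the slide as a random block and 0 within run 2, where lower calls (29) were also 0. LT-HSC higher (1) was 0 with the dim filter and 0 with the slide block, and LT-HSC lower (0) was 1 with the run block and 1 with all probes averaged. MPP lower than ST-HSC (0) was 2 with the run block and 1 with the slide block. GMP higher than CMP (0) was 3 with the run block, and lower (1) was 2 with the run block and 2 with the slide block. MEP higher than CMP (12) was 28 at the 75th percentile and 37 with the run block, and lower (1) was 2 in the authors' table, 3 with the run block and 3 with the slide block. MEP higher than GMP (10) was 30 with the run block and 17 with the slide block, and lower (0) was 1 with each. At an unadjusted F-test p of 1e-06, 1 member passed. The cause was not tested.

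With the replicate number as a block on the numbered arrays alone, MPP higher than ST-HSC was 0, MEP higher than CMP 15 and lower 2, and MEP higher than GMP 10 and lower 1. The same arrays without the block, added after seeing the data, gave 0, 19 and 2, and lower than GMP 1, with GMP higher than CMP 1 and lower 2. For pairing, each numbered array was taken as its deviation from the mean of its population's numbered arrays, over all genes. These deviations, not the levels, correlated between same-numbered arrays at 0.055, 0.077 and 0.158 among CMP, GMP and MEP. Between ST-HSC and MPP they correlated at 0.188. With 2 numbered arrays per population, arrays of different numbers must give the same values with the opposite sign. Same-numbered arrays of CMP, GMP and MEP also shared a slide, so number and slide cannot be told apart there, and the numbers were not taken as pairs. No paired analysis was possible for the HSC subsets against the myeloid populations, LT-HSC and the F-test because they share fewer than 2 numbers.

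Leaving out each array gave 21 to 32 members for the F-test, 3 to 7 higher and 24 to 29 lower for the HSC subsets, 0 to 1 either way for LT-HSC, 1 higher and 0 to 1 lower for MPP, 0 higher and 1 to 2 lower for GMP, 5 to 13 higher and 1 to 3 lower for MEP against CMP, and 4 to 10 higher and 0 lower for MEP against GMP. Over 40 pairs of a named member and a comparison, 331 values under alternatives kept direction and call, 46 lost the call and 1 turned sign (Atp5s, -0.03 with the run block), and of the values without an array 619 kept the call and 61 lost it. Members dim on an array, above all the unnumbered LT-HSC array, are measured least precisely.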

Other observations

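The subunits encoded by mitochondrial DNA are not among the 82 members, but the array holds probes on the mitochondrial chromosome. CYTB, the cytochrome b of complex III (probe at chrM:15099-15158, mm9), read 15.51, 15.80 and 16.29 in MEP, 15.03, 15.04 and 15.20 in CMP and 14.64, 14.85 and 15.00 in GMP. It read 15.17 and 15.43 in LT-HSC, 15.28 to 15.45 in ST-HSC and 14.79 to 14.97 in MPP. The MEP arrays were above all others, and MPP and GMP were lowest and overlapped. CYTB was higher in MEP than in CMP by 0.78 log2 units (adjusted p = 0.00737 by limma) and than in GMP by 1.04 (adjusted p = 0.000827), and the difference between the HSC subsets and the myeloid populations was -0.08 (adjusted p = 0.564). A pair of unnamed probes that overlap each other (chrM:11370-11429 and chrM:11419-11475) were also higher in MEP than in GMP, by 1.10 (adjusted p = 0.00686) and 1.07 (adjusted p = 0.0027). A probe named COX2, which the files place on chr1:24621739-24621798, differed by 0.20 between MEP and CMP (adjusted p = 0.80). These probes were chosen after their values were seen.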
